A study of Mus musculus with 12 samples.

Results

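The genes described here are 39 genes of glycolysis and of the response to low oxygen, taken from the count table by gene symbol. They comprise the transcription factors Hif1a and Epas1, the oxygen sensors Egln1 and Egln3, the glucose transporters Slc2a1 and Slc2a3, and 15 glycolytic enzymes. The others are the phosphofructokinase regulators Pfkfb3 and Pfkfb4, 6 genes of pyruvate and lactate handling, the carbonic anhydrases Car9 and Car12, the secreted factors Vegfa, Angptl4 and Adm, and 5 further hypoxia-responsive genes. All 39 were found among the 55421 Ensembl genes of the table, and all 39 were among the 18108 genes with enough counts to test. Poly(A) RNA was sequenced in bulk from MOC2, a mouse oral squamous cell carcinoma line, in 4 groups of 3 libraries.

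The derivative MOC2-25 is labelled EV-Proficient and MOC2-27 EV-Deficient, EV standing for extracellular vesicles, and how the lines were made is not given in the labels. Each label is carried by a single derivative line, so that vesicle status and line cannot be told apart. Control cells of each line received DMSO, and the other cells received 600 nM paclitaxel, a drug that stabilises microtubules, for 48 h, which the labels describe as a way to make the cells senescent. Cells of all groups had been seeded in 15-cm plates and left for 24 h at 37 °C in 5% CO2. The shared medium was DMEM with Ham's F12, serum, hydrocortisone, cholera toxin, transferrin, insulin, tri-iodothyronine and EGF. No low-oxygen treatment is named. Since the labels do not say whether the 3 libraries of a group came from separate cultures, the p-values measure the spread between libraries, which may be technical.

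Glycolysis splits glucose into pyruvate in the cytosol, and lactate dehydrogenase then converts pyruvate to lactate, which monocarboxylate transporters carry out of the cell. Several of its steps are shared by isozymes encoded by different genes, with a form that dominates in most tissues and others enriched in brain, muscle or heart. Under low oxygen the prolyl hydroxylases of the Egln family no longer mark HIF-1α (Hif1a) and HIF-2α (Epas1) for destruction, and the HIF complex then binds hypoxia response elements in genes for glucose uptake, glycolysis, pH control and blood vessel growth. That control acts mainly on HIF protein, which RNA counts do not measure.

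The deposited table held 23263472 to 62955757 counts per library. The epithelial markers Cdh1, Epcam, Krt8 and Krt18 were abundant. Of the keratinocyte markers, Krt14, Itgb4, Col17a1 and Sfn had enough counts to test. Krt5 and Trp63 did not, at no more than 0.171 and 0.180 CPM (counts relative to library size) in any library. The lines did not keep a fixed order between treatments. On the second principal component, which held 16.4% of the variance, EV-proficient DMSO libraries lay with EV-deficient paclitaxel libraries, and EV-deficient DMSO libraries with EV-proficient paclitaxel libraries. An added table row named dngfr, whose meaning the labels do not give, followed the same crossing, with 5.73, 9.07 and 12.2 CPM in EV-proficient DMSO libraries and 1.89 to 2.54 CPM in EV-deficient DMSO libraries. After paclitaxel it stood at 2.47 to 3.76 CPM under the EV-proficient label and 9.63 to 12.4 CPM under the EV-deficient label. Results that set the 2 labels apart therefore hold for the libraries as labelled. The mean of the 2 paclitaxel effects does not depend on which label a treatment's libraries carry, and is given for each gene whose effects were called as different. Whether line, treatment or library identity lies behind the crossing was not tested.

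The promoters of 35 of the 39 genes were available from RefSeq (GRCm38.p6), and those of Angptl4, Epas1, Ndrg1 and Slc2a3 were not used here. The core letters of the hypoxia response element, ACGTG or GCGTG on either strand, occurred in the 250 bases before a start of 31 of these 35 genes (88.6%), against 41.5% of 27025 genes with a window in the table. The motifs overlap where both strands of CACGTG match. By single windows the share was 79.6% of 49 against 38.6% of 32851. Since the 39 genes were picked as glycolytic enzymes and HIF targets, this difference in share is not a result of these data. The letters were about as frequent before genes that fell with paclitaxel in both lines, 13 of 14, as before genes that rose in both, 9 of 10. A match is a description of the sequence and not a bound site. The 250 bases before the start are shown for 3 genes that fell and 3 that rose, those with the largest mean paclitaxel effect among genes with a single window that moved the same way in both lines and had at most 30 exon bases in the window. The motif is in capitals, in the direction of the gene. The Pgam1, Gapdh and Hk2 promoters, from genes that fell, lie at chr19:41911621-41911870 (plus strand), chr6:125165774-125166023 (minus strand) and chr6:82774455-82774704 (minus strand), and hold 3, 2 and 2 matches. The RefSeq start of Pgam1 is not a transcript start in the GENCODE annotation.
Pgam1: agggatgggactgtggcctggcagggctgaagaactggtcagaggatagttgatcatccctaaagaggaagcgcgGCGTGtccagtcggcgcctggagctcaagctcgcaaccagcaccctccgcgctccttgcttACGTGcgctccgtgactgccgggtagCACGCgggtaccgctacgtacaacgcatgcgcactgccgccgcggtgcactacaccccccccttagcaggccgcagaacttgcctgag
Gapdh: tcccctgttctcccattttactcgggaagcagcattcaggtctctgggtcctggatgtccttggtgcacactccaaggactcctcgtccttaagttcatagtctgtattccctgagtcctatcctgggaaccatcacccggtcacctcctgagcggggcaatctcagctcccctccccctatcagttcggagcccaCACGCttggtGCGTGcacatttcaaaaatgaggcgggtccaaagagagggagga
Hk2: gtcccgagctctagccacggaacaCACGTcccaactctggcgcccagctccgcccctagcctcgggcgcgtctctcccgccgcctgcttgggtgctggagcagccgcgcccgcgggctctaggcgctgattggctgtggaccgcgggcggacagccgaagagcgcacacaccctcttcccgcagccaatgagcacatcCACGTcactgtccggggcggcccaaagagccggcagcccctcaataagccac

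The Bnip3, Ldhb and Adm promoters, from genes that rose, lie at chr7:138909507-138909756 (minus strand), chr6:142507958-142508207 (minus strand) and chr7:110627407-110627656 (plus strand). They hold 5, 1 and 2 matches, and the Bnip3 window has a palindromic CACGTG. The same letters thus stood before genes that moved in opposite directions.
Bnip3: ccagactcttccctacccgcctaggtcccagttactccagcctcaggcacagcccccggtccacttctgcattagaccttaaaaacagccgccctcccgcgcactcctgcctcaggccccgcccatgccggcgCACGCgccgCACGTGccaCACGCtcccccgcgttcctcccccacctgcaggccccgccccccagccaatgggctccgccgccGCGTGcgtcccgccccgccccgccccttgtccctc
Ldhb: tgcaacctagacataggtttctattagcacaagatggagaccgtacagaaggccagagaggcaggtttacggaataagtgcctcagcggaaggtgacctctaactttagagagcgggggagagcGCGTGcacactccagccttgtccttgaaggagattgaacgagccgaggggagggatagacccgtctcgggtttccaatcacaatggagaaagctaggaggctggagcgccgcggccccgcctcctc
Adm: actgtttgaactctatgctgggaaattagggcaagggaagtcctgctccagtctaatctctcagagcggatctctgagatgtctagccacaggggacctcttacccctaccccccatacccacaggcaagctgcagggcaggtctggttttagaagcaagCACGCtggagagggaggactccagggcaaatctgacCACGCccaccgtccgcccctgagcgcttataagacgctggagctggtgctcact

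Paclitaxel lowered most of the glycolytic enzyme genes in both lines, Gapdh, Pkm, Eno1 and Pgam1 among them. It raised Aldoc, Eno2 and Ldhb, isozymes of low abundance, while the hypoxia-responsive genes went in both directions. In EV-proficient cells 32 of the 39 genes were called at an adjusted p under 0.05, against 58.2% of all genes tested. Of these 14 were higher and 18 lower, against 31.1% and 27.1% of all genes. In EV-deficient cells 33 were called, against 62.9%, with 15 higher and 18 lower, against 32.4% and 30.5%. Upper-quartile scaling, which moved the median of all genes there from 0.07 to 0.26, gave 18 higher and 15 lower. Between the 2 lines 14 genes were lower in both, which is 35.9% of the genes described here and compares with 18.5% of all genes tested. A further 11, or 28.2%, were higher in both, against 18.9% of all genes. The 4 genes Angptl4, Car12, Hk1 and Pfkp were called in opposite directions, 10.3% against 7.09% of all genes, and Hif1a, Epas1 and Ankrd37 were called in neither line. DMSO and paclitaxel libraries did not overlap for 37 of the 39 genes in EV-proficient cells, against 62.3% of all genes, and for 29 in EV-deficient cells, against 68.7%. In the mean of the paclitaxel effects 35 genes were called, against 68.4% of all genes, with 16 higher and 19 lower, against 37.1% and 31.3%. Upper-quartile scaling turned this split to 18 higher and 16 lower. Levels are CPM scaled by the trimmed mean of M values, and differences are log2 fold changes with their standard errors (SE) from edgeR. Counts are relative to the whole library, so that fewer cells of a type and less RNA per cell cannot be told apart.

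**Figure D1:**
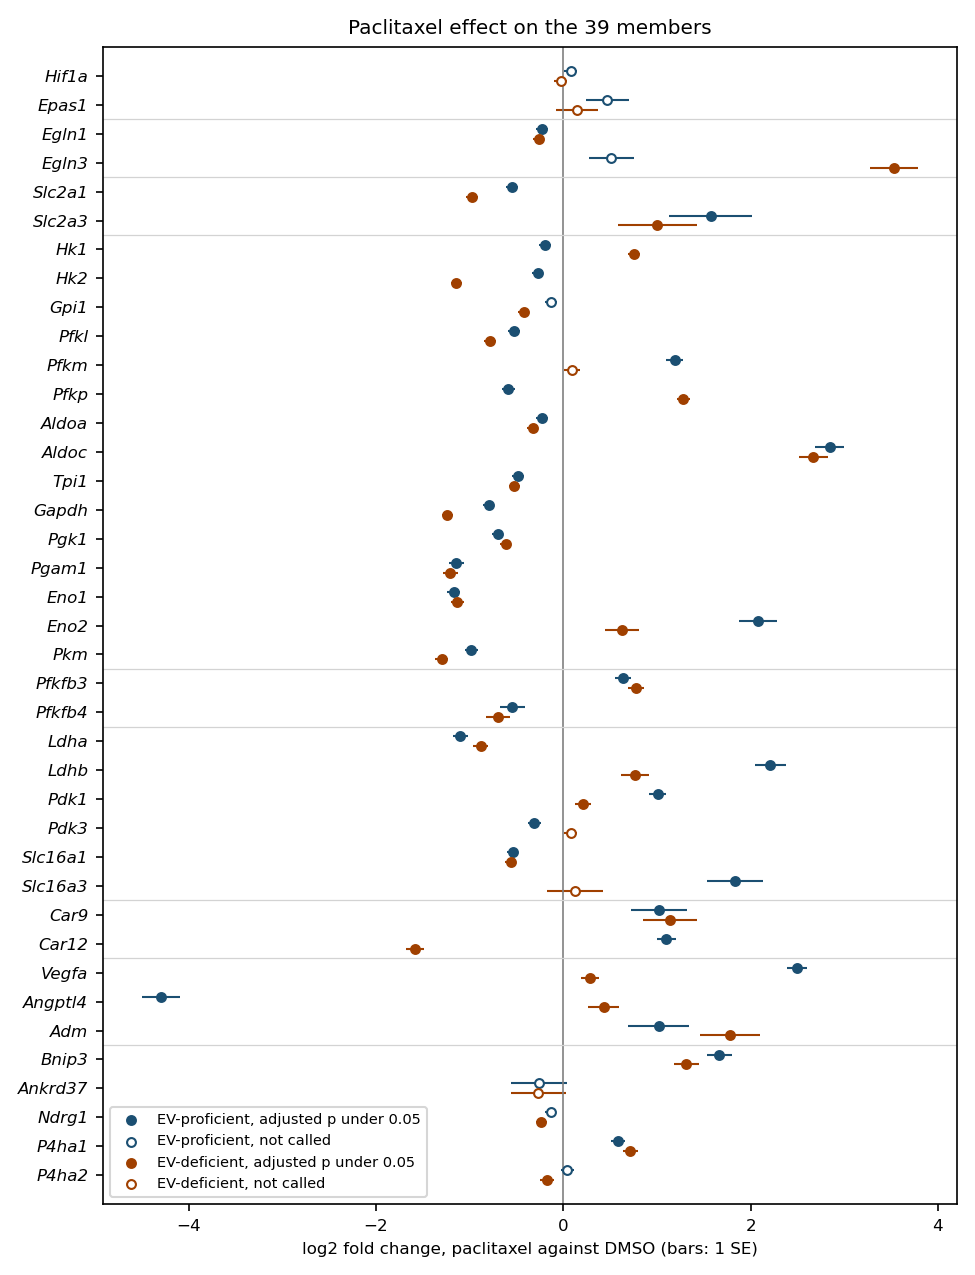
Log2 fold change of paclitaxel against DMSO (x axis) for each of the 39 genes (y axis, grouped by role) in EV-proficient (blue) and EV-deficient (brown) cells, with bars of 1 SE and filled points for adjusted p under 0.05. Most of the glycolytic enzymes lie left of 0 in both lines, Aldoc and Eno2 lie right of 0 in both, and Angptl4, Car12, Hk1 and Pfkp lie on opposite sides.

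The HIF transcription factor genes were not called under paclitaxel in either line. Hif1a, which encodes the oxygen-regulated HIF-1α, stood at 116, 119 and 107 CPM in EV-proficient DMSO libraries and at 127, 108 and 127 CPM after paclitaxel. Hif1a in EV-deficient cells stood at 130, 127 and 119 CPM with DMSO and at 128, 122 and 119 CPM with paclitaxel. These ranges overlapped in both lines, with log2 fold changes of 0.08 ± 0.07 (SE, adjusted p = 0.334) and -0.03 ± 0.07 (adjusted p = 0.762). Under upper-quartile scaling the EV-deficient value was 0.16 and was called. Epas1, which encodes HIF-2α, was low in every group, with means of 1.65 to 2.30 CPM, and its log2 fold changes of 0.47 ± 0.23 and 0.15 ± 0.22 did not pass the test. The EV-proficient groups of Epas1 did not overlap, and with upper-quartile scaling that value was 0.53 and was called.

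Of the prolyl hydroxylases that act on HIF, Egln1 fell slightly in both lines and Egln3 rose strongly in EV-deficient cells. Egln1 fell by 0.23 in EV-proficient and by 0.26 in EV-deficient cells on the log2 scale, from group means of 88.2 and 82.0 CPM. The second of these calls was lost with upper-quartile scaling. Egln3, itself a known target of HIF, stood at 0.357, 0.584 and 0.329 CPM in EV-deficient DMSO libraries and at 5.18, 4.56 and 4.99 CPM after paclitaxel, an 11.6-fold rise (log2 fold change 3.53 ± 0.26, adjusted p = 1.15e-10). Its levels in EV-proficient cells were 0.950, 1.22 and 1.40 CPM with DMSO and 1.80, 1.76 and 1.5 CPM with paclitaxel. Those groups did not overlap, but the log2 fold change of 0.51 ± 0.24 did not pass the test (adjusted p = 0.075), and was called with upper-quartile scaling (0.57). Of the 4 groups, the EV-deficient paclitaxel libraries were thus the highest for Egln3 and the EV-deficient DMSO libraries the lowest. Its mean paclitaxel effect was 2.02 ± 0.18.

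The glucose transporter genes moved in opposite directions. Slc2a1, which encodes the widespread transporter GLUT1, stood at 123, 136 and 122 CPM in EV-proficient DMSO libraries and at 82.3, 90.5 and 88.7 CPM after paclitaxel, a 1.46-fold fall (log2 fold change -0.54 ± 0.06, adjusted p = 2.52e-07). In EV-deficient cells Slc2a1 went from 141, 130 and 132 CPM to 66.5, 71.1 and 67.9 CPM, a 1.96-fold fall (-0.97 ± 0.06, adjusted p = 2.46e-11). The groups did not overlap in either line, and the fall was larger by 0.43 ± 0.09 on the log2 scale in EV-deficient cells (adjusted p = 0.000564). Slc2a3, which encodes the high-affinity transporter GLUT3, rose from a mean of 0.318 to 0.940 CPM in EV-proficient cells (log2 fold change 1.58 ± 0.44) and from 0.363 to 0.737 CPM in EV-deficient cells (1.01 ± 0.42, adjusted p = 0.0445). The EV-deficient call was lost in 10 of 20 alternatives, 7 of which left out EV-proficient DMSO replicate 2, any EV-deficient DMSO library, EV-proficient paclitaxel replicate 2, or EV-deficient paclitaxel replicate 1 or 2. Per kilobase of exon, Slc2a3 was the lowest of the 39 genes in every group, so that Slc2a1 remained the dominant form throughout.

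Of the 15 glycolytic enzyme genes, 11 fell and 3 rose in EV-proficient cells, and 10 fell and 4 rose in EV-deficient cells, beside falls in 27.1% and 30.5% and rises in 31.1% and 32.4% of all genes. Their median log2 fold changes were -0.48 and -0.52, beside medians of 0.05 and 0.07 over all genes tested. With upper-quartile scaling the enzyme medians were -0.42 and -0.34, with 3 rises and 10 falls in EV-proficient and 5 rises and 10 falls in EV-deficient cells. Together the 15 genes took 1.33% ± 0.0412 (SD, n = 3) of all counts in EV-proficient DMSO libraries and 0.895% ± 0.0216 after paclitaxel. The EV-deficient shares were 1.39% ± 0.0358 and 0.879% ± 0.0513. The lowest DMSO library, at 1.3%, lay above the highest paclitaxel library, at 0.930%. Over the same libraries the summed epithelial markers (8 of 10 tested, Krt5 and Trp63 near 0) went from 5393 to 6089 CPM with DMSO to 3270 to 4062 CPM with paclitaxel, and the mitochondrially encoded share of counts went from 0.550 to 0.729% up to 0.846 to 1.45%. The summed fibroblast markers (6 of 8 tested, none at 0 in all libraries) went from 1.68 to 3.6 CPM up to 5.58 to 8.99 CPM, and the endothelial markers (4 of 5 tested, none at 0 in all libraries) from 1.88 to 2.87 CPM up to 2.96 to 4.46 CPM. The part of these values in the result was not tested.

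Nearly all steps from triose phosphate to pyruvate were lower after paclitaxel. Gapdh, glyceraldehyde-3-phosphate dehydrogenase and the most abundant of the 39 genes per kilobase in every group, stood at 4609, 4956 and 4540 CPM in EV-proficient DMSO libraries and at 2593, 2805 and 2713 CPM after paclitaxel. In EV-deficient cells Gapdh went from 5669, 5380 and 5237 CPM to 2318, 2151 and 2442 CPM. No paclitaxel library reached the lowest DMSO library, and the falls were 1.74-fold (log2 fold change -0.80 ± 0.06, adjusted p = 2.91e-10) and 2.36-fold (-1.24 ± 0.06, adjusted p = 2.72e-13). Gapdh is often used as a reference gene in RNA assays, and its mean paclitaxel effect here was a 2.02-fold fall.

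Pgam1, phosphoglycerate mutase, stood at 406, 440 and 432 CPM in EV-proficient DMSO libraries and at 192, 202 and 184 CPM after paclitaxel (log2 fold change -1.14 ± 0.08, adjusted p = 9.68e-11). In EV-deficient cells Pgam1 went from 452, 437 and 451 CPM to 200, 162 and 219 CPM (-1.20 ± 0.08, adjusted p = 2.59e-11). The falls were 2.21-fold and 2.30-fold, and the libraries of the lines overlapped under either treatment. The difference between the paclitaxel effects was -0.06 ± 0.11 on the log2 scale.

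Eno1, the widespread enolase, stood at 2569, 2821 and 2537 CPM in EV-proficient DMSO libraries and 1151, 1209 and 1160 CPM after paclitaxel (log2 fold change -1.17 ± 0.07, adjusted p = 8.49e-12). In EV-deficient cells Eno1 went from 2732, 2529 and 2454 CPM to 1180, 1051 and 1286 CPM (-1.13 ± 0.07, adjusted p = 7.49e-12). The groups were separate in both lines, while the lines overlapped under each treatment, with means of 2642 and 2572 CPM with DMSO and 1174 and 1172 CPM after paclitaxel. Pkm, pyruvate kinase, which makes the pyruvate, stood at 2774, 3132 and 2853 CPM and then 1438, 1527 and 1471 CPM in EV-proficient cells (-0.98 ± 0.07, adjusted p = 7.08e-11). In EV-deficient cells Pkm went from 3513, 3209 and 3199 CPM to 1325, 1239 and 1473 CPM (-1.3 ± 0.07, adjusted p = 6.41e-13). The groups did not overlap in either line. The difference between the paclitaxel effects, -0.32 ± 0.09, was lost as a call with upper-quartile scaling (-0.19) and without EV-proficient paclitaxel replicate 2 or EV-deficient paclitaxel replicate 1 or 2, where the weakest value was -0.21.

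The other shared steps fell less. Pgk1, phosphoglycerate kinase, fell 1.62-fold and 1.53-fold in EV-proficient and EV-deficient cells, and Tpi1, triose phosphate isomerase, fell 1.40-fold and 1.44-fold. Aldoa, the main aldolase, fell 1.17-fold and 1.26-fold. Pfkl, the liver-type phosphofructokinase, fell 1.44-fold and 1.73-fold. Gpi1, glucose-6-phosphate isomerase, fell 1.34-fold in EV-deficient cells, and its log2 fold change of -0.13 ± 0.06 in EV-proficient cells did not pass the test (adjusted p = 0.066), although the groups did not overlap and 7 of 20 alternatives called it, among them DESeq2 and 5 fits without a paclitaxel library, any but EV-proficient replicate 1. The order of mean levels per kilobase was Gapdh, Pkm, Eno1, Pgk1, Ldha, Aldoa, Tpi1, Pgam1 and Gpi1 in both DMSO groups. After paclitaxel the mean of Pgk1 stood above that of Pkm, and the mean of Eno1 below those of Ldha and Aldoa, in both lines. The ranges of Eno1 and Aldoa in EV-proficient cells (218 ± 5.83 and 269 ± 7.84 CPM per kilobase) were separate, and the ranges of the other pairs overlapped. Eno1, Pgk1 and Ldha per kilobase in EV-proficient DMSO libraries, at 491 ± 28.9, 485 ± 15.8 and 480 ± 20.3 (SD, n = 3), had means closer than these SDs. The same held for Pgk1 and Ldha in EV-deficient DMSO libraries, at 455 ± 13.9 and 448 ± 15.4. These SDs are between libraries, and the genes were not compared within each library. After paclitaxel Pgk1 and Eno1 in EV-proficient cells stood at 298 ± 5.04 and 218 ± 5.83.

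**Figure D2:**
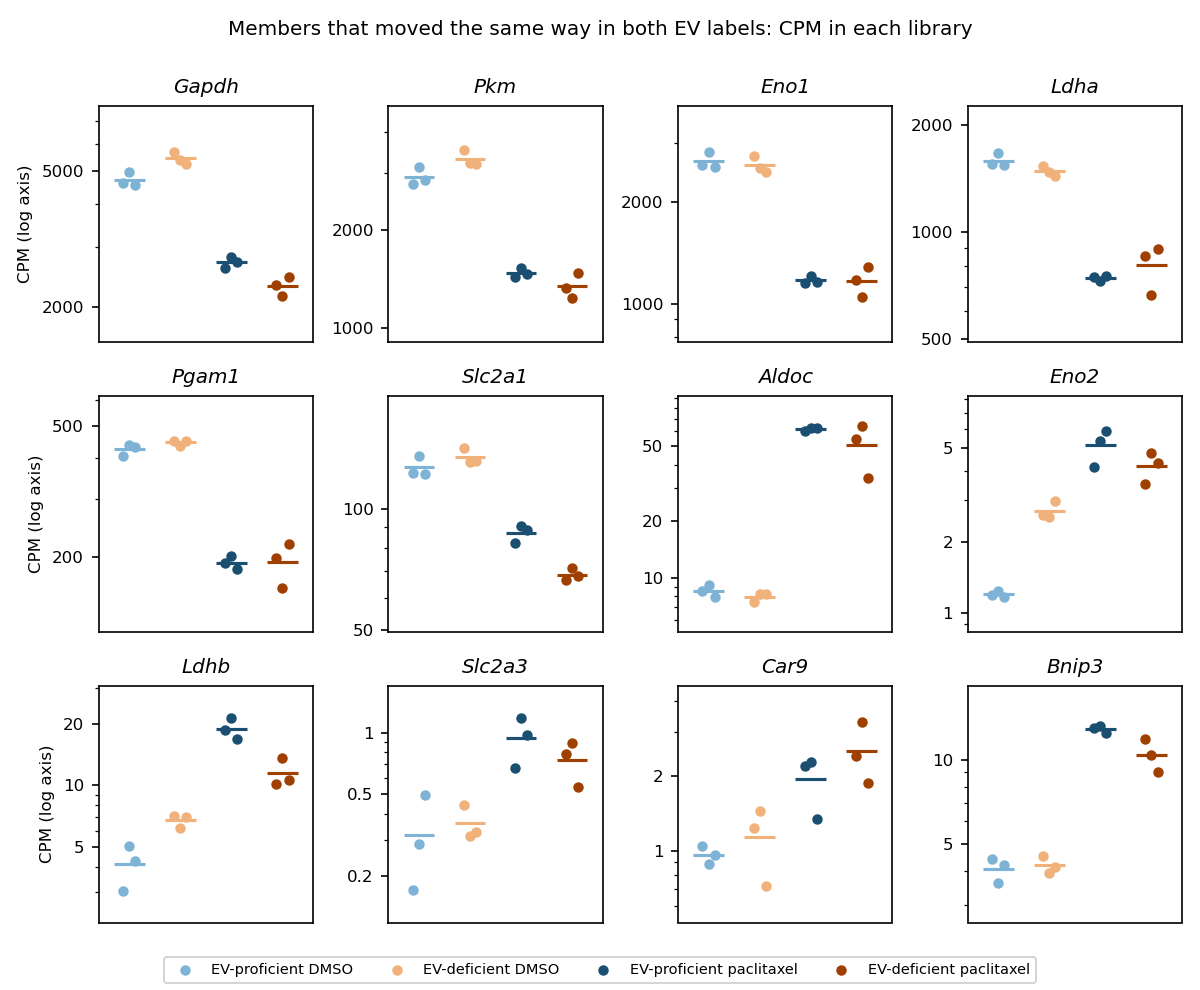
CPM on a log axis in each library for 12 genes called in the same direction in both lines, with 1 point per library (3 per group) and a line at the group mean. Gapdh, Pkm, Eno1, Ldha, Pgam1 and Slc2a1 are lower in every paclitaxel library than in any DMSO library, whereas Aldoc, at 7.46 to 9.17 CPM with DMSO, is at 34.0 to 64.0 CPM with paclitaxel.

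The low-abundance isozyme genes Aldoc, Eno2 and Ldhb rose in both lines. Aldoc, the aldolase known from brain, stood at 8.58, 9.17 and 7.96 CPM in EV-proficient DMSO libraries and at 60.1, 62.8 and 62.2 CPM after paclitaxel, a 7.19-fold rise (log2 fold change 2.85 ± 0.15, adjusted p = 2.63e-12). In EV-deficient cells Aldoc went from 7.46, 8.19 and 8.27 CPM to 54.4, 64.0 and 34.0 CPM, a 6.37-fold rise (2.67 ± 0.15, adjusted p = 2.68e-12). All 6 paclitaxel libraries lay above all 6 DMSO libraries, and its mean effect, 2.76 ± 0.11, was the largest rise among the 39 genes.

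Eno2, the enolase known from neurons, stood at 1.19, 1.24 and 1.17 CPM in EV-proficient DMSO libraries and 4.15, 5.34 and 5.87 CPM after paclitaxel (log2 fold change 2.08 ± 0.20, adjusted p = 1.19e-08). In EV-deficient cells Eno2 went from 2.61, 2.54 and 2.98 CPM to 3.52, 4.76 and 4.30 CPM (0.63 ± 0.18, adjusted p = 0.00472). The 2 paclitaxel groups overlapped, but the EV-proficient DMSO libraries started lower. Ldhb, the lactate dehydrogenase subunit that predominates in heart, stood at 3.05, 5.05 and 4.24 CPM in EV-proficient DMSO libraries and at 18.7, 21.5 and 16.8 CPM after paclitaxel (2.21 ± 0.16, adjusted p = 2.02e-10). Its EV-deficient levels were 7.07, 6.17 and 7.0 CPM with DMSO and 10.1, 13.7 and 10.6 CPM with paclitaxel (0.76 ± 0.15, adjusted p = 0.000166). For Eno2 and Ldhb the rise was smaller in EV-deficient cells by 1.45 on the log2 scale (interaction -1.45 ± 0.27, adjusted p = 0.000168 for Eno2 and -1.45 ± 0.22, adjusted p = 1.77e-05 for Ldhb).

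The ratio of counts between paired isozymes within a library does not depend on how libraries are scaled. The Aldoc to Aldoa ratio was 0.00937 ± 0.000733 (SD, n = 3) in EV-proficient and 0.00935 ± 0.000858 in EV-deficient DMSO libraries, and after paclitaxel 0.0789 ± 0.00207 and 0.0740 ± 0.0192. Aldoc thus gained on Aldoa to a like extent in either line. The Eno2 to Eno1 ratio went from 0.000456 to 0.00436 in EV-proficient cells and from 0.00106 to 0.00362 in EV-deficient cells, and the Ldhb to Ldha ratio from 0.00258 to 0.0257 and from 0.00455 to 0.0147. In each of these 3 pairs every paclitaxel library had a higher ratio than every DMSO library. The major isozyme still held nearly all counts of its pair.

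Pfkm, the muscle-type phosphofructokinase, rose 2.28-fold in EV-proficient cells, from a mean of 19.9 to 45.3 CPM, and its log2 fold change of 0.10 ± 0.08 in EV-deficient cells (33.6 and 36.0 CPM) did not pass the test, and was 0.28 and called with upper-quartile scaling. Since Pfkl fell in both lines, the Pfkm to Pfkl ratio rose in both, from 0.107 and 0.190 to the same 0.353 in either line. Pfkm shares 18 exon bases with Senp1 on the other strand, and whether the counting used strand is not stated.

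**Figure D3:**
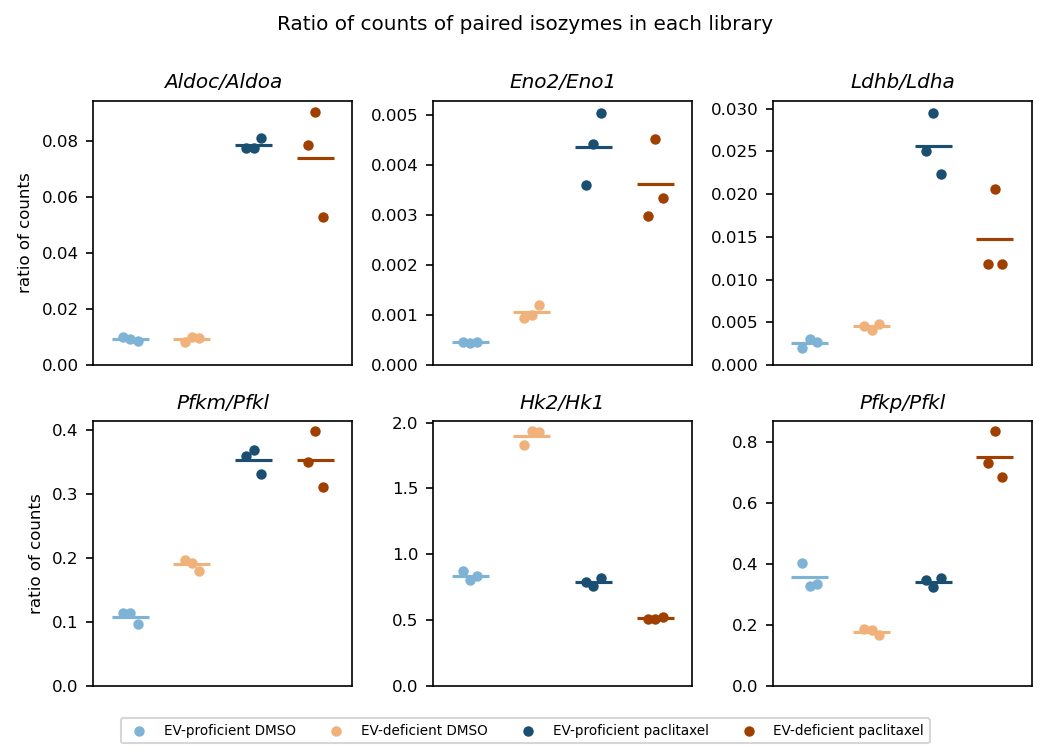
Ratio of the counts of paired isozymes (y axis, linear from 0) in each library, with a line at the mean of the 3 libraries of a group. Aldoc/Aldoa, Eno2/Eno1, Ldhb/Ldha and Pfkm/Pfkl are higher in every paclitaxel library than in any DMSO library, whereas Hk2/Hk1 and Pfkp/Pfkl show the largest differences between the lines in the paclitaxel effect among the 6 pairs drawn.

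Hexokinases and the platelet-type phosphofructokinase differed in their paclitaxel effect between the lines as labelled. Hk1, the widespread hexokinase, rose 1.68-fold in EV-deficient cells, from 101 ± 3.48 to 170 ± 7.90 CPM (SD, n = 3), and fell 1.14-fold in EV-proficient cells, from 150 ± 5.20 to 132 ± 10.3 CPM, a call lost in 3 of 20 alternatives, 1 of which left out EV-proficient DMSO replicate 2. Hk2, the hexokinase induced by HIF and growth signals, fell 2.21-fold in EV-deficient cells, from 192 ± 5.24 to 87.0 ± 4.35 CPM, and 1.21-fold in EV-proficient cells, from 125 ± 2.31 to 104 ± 4.21 CPM. The Hk2 to Hk1 ratio therefore went from 1.90 to 0.510 in EV-deficient cells and from 0.834 to 0.789 in EV-proficient cells. The mean paclitaxel effects were 0.28 ± 0.05 for Hk1 and -0.71 ± 0.04 for Hk2.

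Pfkp stood at 72.5, 63.5 and 60.4 CPM in EV-proficient DMSO libraries and at 44.4, 43.0 and 43.5 CPM after paclitaxel (log2 fold change -0.59 ± 0.07, adjusted p = 3.34e-07). In EV-deficient cells Pfkp went from 32.5, 31.8 and 29.9 CPM up to 75.6, 77.9 and 75.7 CPM (1.28 ± 0.07, adjusted p = 1.67e-12). No libraries of any 2 groups overlapped, and the paclitaxel effects differed by 1.87 ± 0.10 (adjusted p = 2.96e-12) about a mean of 0.35 ± 0.05. Pfkp shares 748 exon bases with Pitrm1 on the opposite strand, which had 352% as many counts. Pitrm1 moved by -0.31 and -0.29 under paclitaxel, and its differences between lines, -0.05 and -0.03, did not pass the test.

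The bifunctional enzymes that set the level of fructose 2,6-bisphosphate, an activator of phosphofructokinase, moved apart. Pfkfb3, the form with high kinase activity, rose 1.56-fold in EV-proficient cells (51.6 to 80.4 CPM) and 1.71-fold in EV-deficient cells (57.7 to 98.8 CPM). Pfkfb4 fell 1.46-fold (17.8 to 12 CPM) and 1.62-fold (23.6 to 14.5 CPM). All 4 of these values passed the test, and neither gene's paclitaxel effect was called as different between lines.

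Of the genes of lactate handling, Ldha and Slc16a1 fell in both lines, and Slc16a3 rose in EV-proficient cells. Ldha, the main lactate dehydrogenase subunit, stood at 1555, 1666 and 1545 CPM in EV-proficient DMSO libraries and 744, 729 and 752 CPM after paclitaxel (log2 fold change -1.10 ± 0.08, adjusted p = 1.84e-10). In EV-deficient cells Ldha went from 1538, 1478 and 1437 CPM to 857, 664 and 898 CPM (-0.88 ± 0.08, adjusted p = 3.27e-09). The groups were separate in both lines, and the 2 paclitaxel groups overlapped. Slc16a1, which encodes the monocarboxylate transporter MCT1, fell 1.45-fold in EV-proficient and 1.48-fold in EV-deficient cells.

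Slc16a3, which encodes the lactate exporter MCT4 and is a known HIF target, stood at 0.512, 0.670 and 0.995 CPM in EV-proficient DMSO libraries and 2.45, 2.41 and 2.87 CPM after paclitaxel, a 3.56-fold rise (log2 fold change 1.83 ± 0.30, adjusted p = 2.05e-05). In EV-deficient cells Slc16a3 was at 0.589, 0.876 and 0.746 CPM with DMSO and at 0.895, 0.822 and 0.689 CPM with paclitaxel, which overlapped (0.12 ± 0.30, adjusted p = 0.741). The paclitaxel effects differed by -1.71 ± 0.43 (adjusted p = 0.00266) about a mean of 0.98 ± 0.21. In the library where the ratio was highest, Slc16a3 had 0.0228 counts for each count of Slc16a1.

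The pyruvate dehydrogenase kinases, which hold pyruvate back from the citric acid cycle, differed between lines. Pdk1 rose 2.01-fold in EV-proficient cells, from 34.8 to 69.9 CPM. Its 1.16-fold rise in EV-deficient cells, from 44.4 to 51.5 CPM with overlapping groups (adjusted p = 0.0413), was lost in 13 of 20 alternatives, 2 of them other methods and 11 of them fits without a library, any library but EV-deficient paclitaxel replicate 3. Pdk3 fell by 0.31 on the log2 scale in EV-proficient cells, and its value of 0.08 ± 0.07 in EV-deficient cells did not pass the test, and was 0.26 and called with upper-quartile scaling.

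Car9 rose in both lines and Car12 crossed. Car9, a surface carbonic anhydrase widely used as a marker of hypoxia, stood at 1.05, 0.885 and 0.966 CPM in EV-proficient DMSO libraries and 2.19, 2.27 and 1.34 CPM after paclitaxel (log2 fold change 1.02 ± 0.30, adjusted p = 0.00612). In EV-deficient cells Car9 went from 1.23, 1.44 and 0.724 CPM to 2.40, 3.27 and 1.87 CPM (1.14 ± 0.29, adjusted p = 0.0016). The groups did not overlap in either line. Car9 shares 214 exon bases with the antisense gene Gm12454, which had 76.7% as many counts and rose by 1.87 and 1.57, and reads from the shared bases cannot be told apart without strand.

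Car12, another surface carbonic anhydrase, stood at 11.2, 11.3 and 11.9 CPM in EV-proficient DMSO libraries and 24.2, 24.6 and 24.9 CPM after paclitaxel, a 2.14-fold rise (log2 fold change 1.10 ± 0.10, adjusted p = 4.58e-09). In EV-deficient cells Car12 went from 33.4, 31.3 and 31.0 CPM to 9.43, 12.6 and 9.97 CPM, a 3.00-fold fall (-1.58 ± 0.10, adjusted p = 8.78e-12). The EV-proficient DMSO and EV-deficient paclitaxel libraries overlapped at the low end, and the mean effect was close to 0 at -0.24 ± 0.07, a call lost with upper-quartile scaling (-0.12).

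Of the secreted factors, Vegfa and Angptl4 differed between the lines in their paclitaxel effect, and Adm was not called as different. Vegfa, the vascular endothelial growth factor and a classical HIF target, stood at 44.4, 48.6 and 50.7 CPM in EV-proficient DMSO libraries and 270, 264 and 277 CPM after paclitaxel, a 5.64-fold rise (log2 fold change 2.5 ± 0.10, adjusted p = 6.15e-14). In EV-deficient cells Vegfa was at 91.0, 91.6 and 93.1 CPM with DMSO and at 107, 139 and 90.6 CPM with paclitaxel, which overlapped (0.29 ± 0.10, adjusted p = 0.015). The EV-deficient value was 0.11 and no longer called without EV-deficient paclitaxel replicate 2, and the call was also lost without EV-deficient DMSO replicate 1. The EV-proficient paclitaxel libraries stood above all others, and the paclitaxel effects differed by -2.21 ± 0.14 (adjusted p = 5.88e-11) about a mean of 1.39 ± 0.07.

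Angptl4, a secreted inhibitor of lipoprotein lipase that responds to low oxygen, to PPAR receptors and to glucocorticoids, went the other way. It stood at 26.7, 29.1 and 26.8 CPM in EV-proficient DMSO libraries and at 1.54, 1.3 and 1.34 CPM after paclitaxel, a 19.7-fold fall (log2 fold change -4.30 ± 0.20, adjusted p = 3.94e-13). In EV-deficient cells Angptl4 was at 7.14, 6.51 and 7.72 CPM with DMSO and at 10.3, 6.01 and 12.3 CPM with paclitaxel, which overlapped (0.43 ± 0.17, adjusted p = 0.0324). Without EV-deficient paclitaxel replicate 3 that value was 0.20 and not called, and 5 further alternatives lost the call, among them leaving out EV-deficient DMSO replicate 1 or 2 or EV-deficient paclitaxel replicate 1. The difference of 4.73 ± 0.27 between the paclitaxel effects (adjusted p = 6.86e-12) was the largest among the 39 genes, and the mean effect was -1.93 ± 0.13.

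Adm, the vasodilator adrenomedullin, stood at 0.658, 0.550 and 0.527 CPM in EV-proficient DMSO libraries and 1.34, 1.18 and 0.971 CPM after paclitaxel (log2 fold change 1.02 ± 0.33, adjusted p = 0.0115), a call lost without EV-proficient paclitaxel replicate 1. In EV-deficient cells Adm went from 0.428, 0.646 and 0.504 CPM to 1.38, 2.51 and 1.56 CPM (1.78 ± 0.32, adjusted p = 4.88e-05). Both pairs of groups were separate, at low levels throughout.

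**Figure D4:**
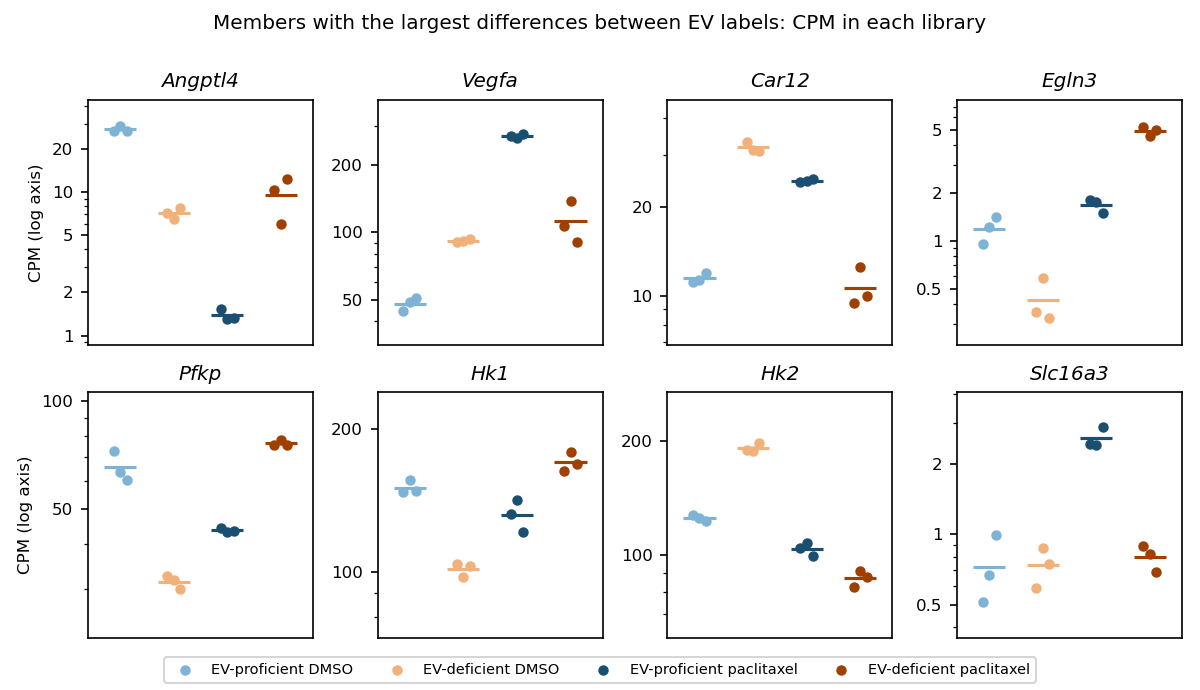
CPM on a log axis in each library for 8 genes with large differences between the lines, with 1 point per library (3 per group) and a line at the group mean. Vegfa and Slc16a3 are highest in EV-proficient paclitaxel libraries, Egln3 in EV-deficient paclitaxel libraries, Angptl4 in EV-proficient DMSO libraries and Car12 in EV-deficient DMSO libraries.

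The remaining hypoxia-responsive genes were mixed. Bnip3, a mitophagy receptor induced by HIF, stood at 4.39, 3.61 and 4.19 CPM in EV-proficient DMSO libraries and 13.0, 13.3 and 12.4 CPM after paclitaxel (log2 fold change 1.67 ± 0.13, adjusted p = 8.37e-10). In EV-deficient cells Bnip3 went from 4.51, 3.92 and 4.12 CPM to 11.9, 10.4 and 9.04 CPM (1.31 ± 0.13, adjusted p = 1.49e-08). All 6 paclitaxel libraries lay above all 6 DMSO libraries. P4ha1, a collagen prolyl hydroxylase, rose 1.5-fold and 1.64-fold. Its relative P4ha2 had a log2 fold change of 0.04 ± 0.07 in EV-proficient cells and fell by 0.17 in EV-deficient cells, where the groups overlapped and 8 of 20 alternatives lost the call. In upper-quartile scaling its sign turned, and leaving out EV-deficient DMSO replicate 1 or 3 or EV-deficient paclitaxel replicate 1 gave values down to -0.11. Ndrg1, a stress-responsive gene, fell by 0.23 in EV-deficient cells, a call lost with upper-quartile scaling (-0.050). Its log2 fold change of -0.14 ± 0.06 in EV-proficient cells did not pass but was called in 9 of 20 alternatives, 7 of which left out EV-proficient DMSO replicate 1 or any paclitaxel library, and the difference between these, -0.10 ± 0.09, did not pass either. Ankrd37 was at or below 1.27 CPM in every library and was not called in any comparison. On the opposite strand it shares 57 exon bases with Ufsp2 and 349 with Lrp2bp. Over all libraries Ankrd37 had 566 counts, Ufsp2 37986 and Lrp2bp 307, and reads from the shared bases cannot be told apart without strand.

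With DMSO the lines differed in 13 of the 39 genes, against 23% of all genes tested, with 9 higher and 4 lower in EV-deficient cells, against 12.4% and 10.6%. A fit on the DMSO libraries alone called 19, with 10 higher and 9 lower, and 5697 of 15580 genes in all. After paclitaxel they differed in 18, against 37.8% of all genes, with 6 higher and 12 lower, against 16% and 21.8%. With upper-quartile scaling the split after paclitaxel was 8 higher and 10 lower. The libraries of the lines did not overlap for 23 of the 39 genes with DMSO, against 43.3% of all genes, and for 23 after paclitaxel, against 44.1%. The 11 genes Angptl4, Car12, Egln3, Gapdh, Hk1, Hk2, Ldhb, Pdk1, Pfkm, Pfkp and Vegfa were called under both treatments, and in all 11 the direction turned. Among all genes 15.7% were called under both treatments and 15% with opposite directions, so the turn was not particular to these genes. The 2 comparisons share no library. Across the 39 genes the 2 differences between lines correlated with Pearson's r = -0.80, and across all genes with r = -0.40, as a description without a test, since genes of the same library share its depth and preparation. Whether called or not, the 2 differences had opposite signs in 24 of the 39 genes (61.5%), against 67.1% of all genes.

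The sizes of these turns were large for Angptl4, Egln3, Car12 and Vegfa. Angptl4 was 3.87-fold lower in EV-deficient than in EV-proficient cells with DMSO (log2 fold change -1.95 ± 0.17) and 6.85-fold higher after paclitaxel (2.78 ± 0.20). Vegfa was 1.92-fold higher with DMSO (0.94 ± 0.10) and 2.41-fold lower after paclitaxel (-1.27 ± 0.10). Car12 was 2.78-fold higher and then 2.31-fold lower, and Egln3 2.80-fold lower and then 2.89-fold higher. Smaller turns were seen in the enzymes. Pfkp was 2.09-fold lower and then 1.75-fold higher, Hk1 1.49-fold lower and then 1.29-fold higher, Hk2 1.53-fold higher and then 1.19-fold lower, and Pfkm 1.69-fold higher and then 1.26-fold lower. The Gapdh difference was 1.15-fold higher with DMSO, a call lost without any of EV-proficient DMSO replicate 3, EV-deficient DMSO replicate 1 and replicate 1 of either paclitaxel group, and then 1.17-fold lower, a call lost with upper-quartile scaling (log2 fold change -0.14 in place of -0.23).

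Other genes passed the test between the lines under 1 treatment and not the other. Eno2 and Pfkfb4 were called with DMSO alone, as were 7.33% of all genes, and Aldoa, Gpi1, Pdk3, Pfkfb3, Pfkl, Slc16a3 and Slc2a1 after paclitaxel alone, as were 22.2% of all genes. For Pfkfb4, Pfkfb3 and Aldoa the difference between the treatments was itself not called (-0.15, 0.14 and -0.10, adjusted p = 0.562, 0.384 and 0.397, edgeR). The Pfkfb4 call was lost without EV-proficient DMSO replicate 3, EV-deficient DMSO replicate 1 or 2, or replicate 1 of either paclitaxel group, with a log2 fold change of 0.41 in the full data and 0.30 at the lowest. The Aldoa call of -0.20 was lost with upper-quartile scaling (-0.11), in a fit on the paclitaxel libraries alone (-0.18), and without EV-proficient paclitaxel replicate 2 or EV-deficient paclitaxel replicate 3. Eno1, Pgk1, Pgam1, Tpi1, Pkm and Aldoc were among 19 genes called under neither treatment, as were 54.8% of all genes. Aldoc after paclitaxel, at -0.28, was called without EV-deficient paclitaxel replicate 2 (-0.47) and without the low-count filter. Pkm was called with DMSO in 4 of 20 alternatives, and after paclitaxel without EV-deficient paclitaxel replicate 3. With DMSO, Pgk1 was called in the fit on the DMSO libraries alone. A leukocyte marker list, 5 of whose 6 genes were measured, 2 with enough counts to test and none at 0 in all libraries, crossed between the lines in the same way. Its sum was 1.32 to 1.46 CPM in EV-proficient and 13.0 to 13.6 CPM in EV-deficient DMSO libraries, and 12 to 13.5 and 5.09 to 7.87 CPM after paclitaxel. Csf1r made up most of it, while Cd3e was at or below 0.0439 CPM in every library. The part of this list in the results was not tested.

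**Figure D5:**
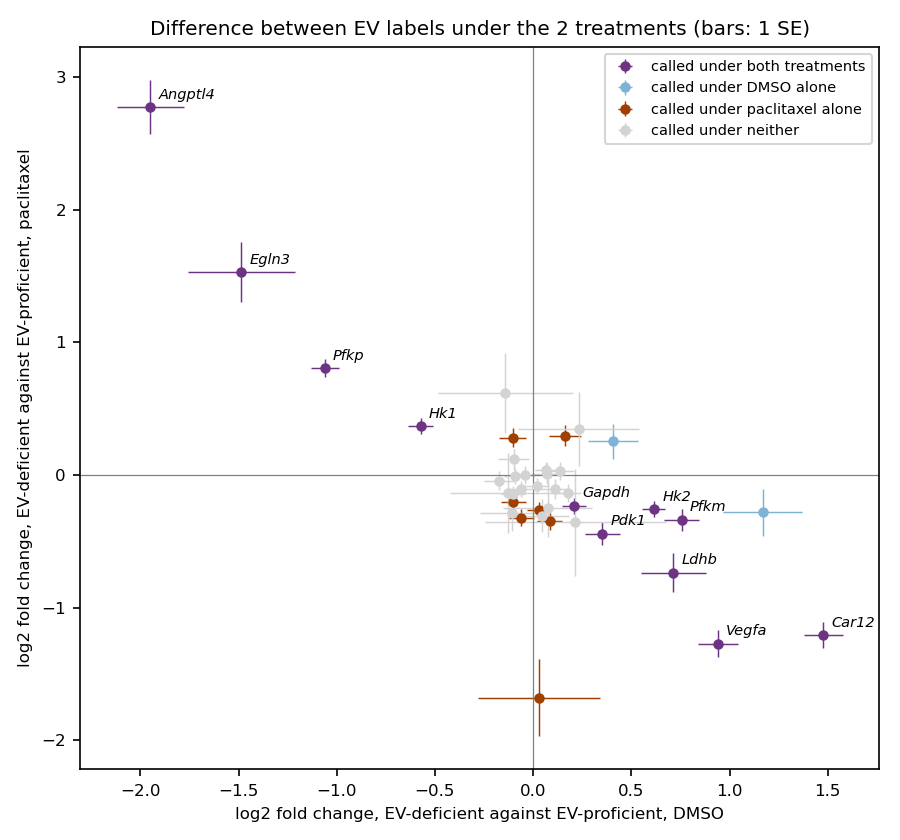
Log2 fold change of EV-deficient against EV-proficient cells with DMSO (x axis) and after paclitaxel (y axis) for the 39 genes, with bars of 1 SE and colours for the treatments under which the gene was called. The 11 genes called under both treatments, named in the plot, all lie in the upper left or lower right quadrant.

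The difference between the 2 paclitaxel effects was called for 18 of the 39 genes, against 40.7% of all genes tested. The effect was higher in EV-deficient cells for 5, against 16.9% of all genes, and lower for 13, against 23.8%, and with upper-quartile scaling the split was 7 and 10. The 5 were Angptl4, Egln3, Pfkp, Hk1 and Pdk3. For genes whose mean effect is not given above, it was 1.49 for Ldhb, 1.35 for Eno2, 0.64 for Pfkm and 0.61 for Pdk1, and -1.14 for Pkm, -0.76 for Slc2a1, -0.66 for Pfkl, -0.28 for Gpi1 and -0.11 for Pdk3. The Pdk3 call was lost in 8 of 19 alternatives, 5 of which left out a DMSO library, any but EV-proficient replicate 3, and was -0.10 at the weakest of these. The falls of Eno1, Pgam1, Pgk1, Tpi1, Aldoa, Ldha and Slc16a1 and the rises of Aldoc, Bnip3, Car9, Adm, P4ha1 and Pfkfb3 were not called as different between lines. Their differences ranged from -0.35 for Bnip3 to 0.76 for Adm on the log2 scale. Without EV-deficient paclitaxel replicate 2, 7 of the 39 genes were called higher and 12 lower in EV-deficient cells for the difference of effects. Without replicate 3 of that group the split was 7 and 13. In these fits 7367 and 7218 genes were called in all. The Pfkl difference of -0.26 was lost in 8 of 19 alternatives, 4 of which left out paclitaxel replicate 1 or 2 of either line, and was -0.15 at the weakest of these and -0.14 with upper-quartile scaling. That scaling also lost the Gpi1 difference of -0.29 (-0.17).

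Other genes of the same pathways were counted in lists outside the 39. Of 13 regulators of the HIF pathway, 6 were higher and 5 lower in the mean paclitaxel effect, in which 37.1% of all genes were higher and 31.3% lower. Hif3a, another HIF α gene, rose from means of 0.474 and 0.507 CPM to 3.6 and 4.54 CPM (log2 fold change 2.90 ± 0.29 in EV-proficient and 3.14 ± 0.28 in EV-deficient cells), and Hif1an, the asparaginyl hydroxylase that inhibits HIF, fell by 0.48 and 0.65. Of 37 further hypoxia-responsive genes tested, 22 rose and 12 fell in EV-proficient cells and 19 rose and 14 fell in EV-deficient cells, with medians of 0.48 and 0.34. Over all genes 31.1% rose and 27.1% fell in EV-proficient cells and 32.4% rose and 30.5% fell in EV-deficient cells, with medians of 0.05 and 0.07. Nos2, the inducible nitric oxide synthase, rose by 2.91 ± 0.17 and 4.08 ± 0.16, and Ddit4, an inhibitor of mTORC1, by 3.37 ± 0.17 and 1.3 ± 0.15.

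Genes of the citric acid cycle fell or were not called. None of 16 citric acid cycle genes rose, while 8 fell in EV-proficient and 15 in EV-deficient cells, with medians of -0.14 and -0.44, beside falls in 27.1% and 30.5% of all genes and medians of 0.05 and 0.07. Ogdh, a subunit of the 2-oxoglutarate dehydrogenase complex, fell by 0.80 and 0.81. Of 9 pentose phosphate pathway genes, 5 fell in each line and 2 rose in EV-proficient cells, and Pgd, 6-phosphogluconate dehydrogenase, fell by 1.38 and 1.00. Of 29 other genes of glycolysis, gluconeogenesis and pyruvate use, 6 were higher and 11 lower in the mean effect, and Pdk2, a further pyruvate dehydrogenase kinase, rose by 3.52 ± 0.21 and 2.76 ± 0.19. Since Angptl4 also responds to other regulators, lists for those were counted too. Of 20 PPAR-responsive lipid genes 13 were higher and 5 lower in the mean effect, and of 10 glucocorticoid-responsive genes 5 were higher and 3 lower, beside 37.1% and 31.3% of all genes. Between the lines, 4 of the PPAR-responsive genes were higher and 2 lower with DMSO, and 5 were higher and 3 lower after paclitaxel. Of the glucocorticoid-responsive genes 2 were higher and 3 lower with DMSO, and 4 were higher and none lower after paclitaxel, beside 12.4%, 10.6%, 16% and 21.8% of all genes.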

How the data were processed

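The authors deposited raw read counts per gene, made from 12 poly(A) libraries of 4 groups of 3, with STAR 2.5.0a and genome build GRCm38 named per the submitters' processing notes. The kit, per the labels' protocols, keeps strand, but whether counting used it is not given in the sources used here. Totals were 23263472 to 62955757 counts per library. Libraries of a group differed by more than counting error, with a chi-square per degree of freedom of 4.20 to 27.8 between pairs. From these counts, CPM and log2 fold changes were computed in R 4.3.3 with edgeR 4.0.16 (TMM scaling, filterByExpr with a minimum count of 10, quasi-likelihood F test on 4 group means over all 12 libraries, Benjamini-Hochberg over 18108 genes, threshold 0.05). Isozyme ratios are plain quotients of counts, and only their log2 values carried a pseudocount of 0.5 count. The 2 added rows, dngfr and gfp, stayed out of the tests. Exon lengths came from GENCODE and promoters from RefSeq.

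The 39 genes and all lists were chosen with earlier results of these data known. Values in every library are given for 19 genes: the 3 highest and 3 lowest called genes of each comparison, and Hif1a, Slc2a1, Ldha, Car9, Vegfa and Angptl4. From the related lists, named genes were among the 4 largest called in the mean effect. The gene Itgam was not analysed here, and 1 other leukocyte marker is not reported here. Alternatives were 2 other scalings, 2 other filters, DESeq2 1.42.0, limma-voom (limma 3.58.1), the replicate number as a block, fits on the compared groups alone, and leaving out each library. The code was tested on simulated data.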

Additional observations from a re-analysis of the deposited data

Results flagged for a closer look

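The paclitaxel effect in EV-deficient cells minus that in EV-proficient cells passed the edgeR test of the difference for 18 of the 39 genes, against 40.7% of all genes tested. On the log2 scale the difference was 4.73 for Angptl4, 3.02 for Egln3, 1.87 for Pfkp, 0.94 for Hk1 and 0.39 for Pdk3, the genes with a higher effect in EV-deficient cells. Among secreted factors, carbonic anhydrases and transporters with a lower effect there, it was -2.21 for Vegfa, -2.68 for Car12, -1.71 for Slc16a3 and -0.43 for Slc2a1. Among enzymes with large differences it was -1.45 for Eno2, -1.45 for Ldhb, -1.09 for Pfkm, -0.87 for Hk2 and -0.79 for Pdk1. The smaller differences were -0.44 for Gapdh, -0.32 for Pkm, -0.29 for Gpi1 and -0.26 for Pfkl.

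The added row dngfr, described above but left out of the tests, had a mean of 10.9 CPM in EV-deficient paclitaxel libraries against 2.15 CPM in EV-deficient DMSO libraries, and 3.24 CPM in EV-proficient paclitaxel libraries against 8.99 CPM in EV-proficient DMSO libraries.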

How the results depend on the processing

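Of 4602 values of the 39 genes under the alternatives, 4463 kept their direction and side of the threshold or were uncalled in both, 80 lost and 56 gained a call, and 3 changed sign with a call in 1 of the 2 fits. All 3 came with upper-quartile scaling, and the cause was not tested: Hif1a in EV-deficient cells at 0.16, P4ha2 in EV-deficient cells at 0.012, and the mean effect of Pdk3 at 0.0089 (-0.11 in the fit above). That scaling moved the median of all genes in EV-deficient cells from 0.07 to 0.26, and the genes called were then 18 higher and 15 lower, and in the mean effect 18 higher and 16 lower. It moved the higher share of all calls in EV-deficient cells from 51.5 to 63.4%, in the difference between lines after paclitaxel from 42.4 to 58.2%, and in the difference of effects from 41.4 to 53.9%. Testing without a low-count filter moved that share from 53.9 to 64.1% in the difference between lines with DMSO, where 10 of the genes described here were higher and 4 lower. Of 149 calls, 130 held in every alternative run. Without single libraries the genes called ranged from 31 to 34 (EV-proficient) and 28 to 32 (EV-deficient) for paclitaxel, 11 to 14 (DMSO) and 18 to 20 (paclitaxel) between lines, 16 to 20 for the difference of effects and 34 to 36 for the mean effect. Differences between groups in the log2 Aldoc to Aldoa ratio also moved. For paclitaxel against DMSO in EV-deficient cells the difference ranged from 2.79 to 3.18. It ranged from -0.29 to 0.10 between lines after paclitaxel and from -0.28 to 0.10 for the difference of effects. The upper ends came without EV-deficient paclitaxel replicate 3. Without Gapdh the glycolytic share of counts was 0.898% and 0.610% in EV-proficient and 0.900% and 0.617% in EV-deficient cells with DMSO and paclitaxel. Levels near 1 CPM, as for Slc2a3, Adm, Slc16a3, Car9 and Ankrd37, had the largest standard errors.

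Same-numbered libraries did not deviate together (18 pairs, r from -0.0812 to 0.0970, 4 of 12 libraries closest to their own number). With the replicate number as a block 32, 32, 13, 20, 18 and 35 genes were called, in the order given above. The block lost Slc2a3 in EV-deficient cells (0.99, adjusted p = 0.0605, edgeR) and gained Pfkfb4 and Bnip3 between lines after paclitaxel.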
